A study of Mus musculus with 6 samples.

Results

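Chromatin accessibility was examined at the genes of the mouse major histocompatibility complex (MHC), named H2 in the mouse, and at the genes that supply them with peptide or switch them on. A peak was taken when the authors' annotation gave it a gene name starting with H2-, or the name Cd74, Ciita, Tap1, Tap2, Tapbp, B2m, Psmb8, Psmb9 or Nlrc5. This gave 48 of 123510 ATAC-seq peaks, named for 28 genes. They fell into 22 peaks of 12 class I genes, 13 peaks of 8 class II genes (with Cd74), 5 peaks of 4 processing genes and 6 peaks of the 2 transactivator genes. The last 2 peaks were named H2-Ke6 and H2-Ke2, genes inside the complex that belong to none of these classes, and they were kept out of the class values. Of the 48 peaks, 41 lay on chromosome 17.

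Nuclei of small intestinal crypts were profiled by ATAC-seq, a method that inserts sequencing adaptors into open chromatin with a transposase, to see how accessibility differs when the chromatin remodeler Smarcad1 is lost. There were 3 libraries from wild type (WT) mice and 3 from mice in which Villin-driven Cre (Vil-Cre) deletes floxed Smarcad1 exons (KO), all on a C57BL/6 background, numbered 1 to 3 in each group. Neither group received a further treatment per the labels, and the age of the mice is not given in the sources used here. Villin drives Cre in the intestinal epithelium, so immune and stromal cells that remain in a crypt preparation keep Smarcad1. The labels state neither that the 3 libraries of a group came from separate mice nor that same-numbered libraries belong together. In bulk nuclei, a different share of a cell type and a different accessibility per cell cannot be told apart.

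MHC class I molecules sit on nearly all nucleated cells and present peptides from inside the cell, which the immunoproteasome subunits Psmb8 and Psmb9 cut, the transporter Tap1/Tap2 carries into the endoplasmic reticulum and tapasin (Tapbp) helps to load. MHC class II molecules present peptides from endocytosed material and are characteristic of B cells, dendritic cells and macrophages, but intestinal epithelial cells can also carry them, above all under interferon-gamma. Ciita is the master transactivator of the class II genes and Nlrc5 that of the class I genes. Both act through a promoter module in which an X box is followed by a Y box.

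The promoters of 5 genes are shown because the comparison of class I with class II turns on such genes: the classical class I heavy chains H2-K1 and H2-D1, and the class II genes H2-Aa, H2-DMb1 and H2-Eb1. Sequences are those of RefSeq on GRCm38.p6, 250 bases before to 50 after a gene start, written 5′ to 3′ on the strand of the gene. H2-K1 is at chr17:34000284-34000583 on the minus strand, H2-D1 at chr17:35262844-35263143 on the plus strand, H2-Aa at chr17:34287774-34288073 on the minus strand, H2-DMb1 at chr17:34152941-34153240 on the plus strand and H2-Eb1 at chr17:34305617-34305916 on the plus strand. Capitals mark an NF-kB letter pattern (GGGNNTTCC), an interferon regulatory factor pattern (GAANNGAAA) and the pair of an X box core (AGNAAC) with ATTGG starting 15 to 45 bases further on. All were searched on both strands, and no marked match overlapped another.
H2-K1: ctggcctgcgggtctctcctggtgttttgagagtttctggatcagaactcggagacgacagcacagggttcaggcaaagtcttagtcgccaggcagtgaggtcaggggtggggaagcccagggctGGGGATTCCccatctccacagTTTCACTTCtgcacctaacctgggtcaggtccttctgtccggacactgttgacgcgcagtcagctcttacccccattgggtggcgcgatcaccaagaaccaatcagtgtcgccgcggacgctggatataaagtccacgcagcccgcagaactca
H2-D1: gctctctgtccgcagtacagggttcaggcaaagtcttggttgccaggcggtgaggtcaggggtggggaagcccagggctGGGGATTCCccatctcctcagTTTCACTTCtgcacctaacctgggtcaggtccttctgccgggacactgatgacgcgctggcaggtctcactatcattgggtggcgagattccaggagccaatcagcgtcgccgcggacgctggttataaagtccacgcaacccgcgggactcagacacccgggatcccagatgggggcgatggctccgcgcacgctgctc
H2-Aa: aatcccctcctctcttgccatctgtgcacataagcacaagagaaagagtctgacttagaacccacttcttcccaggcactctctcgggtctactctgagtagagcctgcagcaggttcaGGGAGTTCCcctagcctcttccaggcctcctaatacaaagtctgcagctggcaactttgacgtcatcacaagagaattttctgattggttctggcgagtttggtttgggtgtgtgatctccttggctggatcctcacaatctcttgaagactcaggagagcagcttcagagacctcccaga
H2-DMb1: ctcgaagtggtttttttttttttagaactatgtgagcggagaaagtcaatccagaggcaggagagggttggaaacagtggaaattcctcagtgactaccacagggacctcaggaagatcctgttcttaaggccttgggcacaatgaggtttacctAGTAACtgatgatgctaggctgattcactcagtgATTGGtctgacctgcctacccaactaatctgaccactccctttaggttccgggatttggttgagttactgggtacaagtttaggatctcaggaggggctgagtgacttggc
H2-Eb1: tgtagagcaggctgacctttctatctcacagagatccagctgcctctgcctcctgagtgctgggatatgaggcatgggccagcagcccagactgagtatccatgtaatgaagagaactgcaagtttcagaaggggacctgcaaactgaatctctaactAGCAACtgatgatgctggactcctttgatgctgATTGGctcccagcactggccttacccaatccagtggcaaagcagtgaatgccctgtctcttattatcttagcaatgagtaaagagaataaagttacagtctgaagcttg

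H2-K1 and H2-D1 carried an NF-kB and an interferon regulatory factor match side by side, while H2-DMb1 and H2-Eb1 carried the X then Y pair. Of the 8 class I windows that touched a peak of the set, 6 held the interferon regulatory factor pattern and 4 the NF-kB pattern, against 7.52% and 5.82% of all 32817 promoter windows. Of the 3 class II windows that touched a peak, those of H2-Aa, H2-DMb1 and H2-Ob, 2 held the X then Y pair, against 1.67% of all windows. None of the 8 class I windows and none of 4 processing windows that touched a peak held that pair. Among windows that touched no peak of the set, the pair occurred in the class II genes H2-Eb1 and H2-Oa and also in the class I genes H2-M2 and H2-M10.4. The H2-Aa window did not hold the pair under these letters. In any class, a missing pair says only that these letters do not occur in the window, and not that an X and Y box module is absent. A match describes the letters and not a bound site, and the letters were chosen after these promoters had been seen. H2-Ab1, H2-Q1, Cd74, Ciita, Nlrc5 and Tap2 are named here without a sequence.

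The libraries held 4339306 to 16301164 reads in peaks, with the highest in WT3 and the lowest in KO3. The deposited value of a peak is the log2 of its read count scaled to the largest library, so that 1 read counted as 1.00 in WT3 and as 3.99 in KO3. This value is called the log2 normalized read count, and a difference of 1 is a 2-fold change. None of the 4 peaks named Smarcad1 overlapped the floxed exons, and these peaks therefore did not check the genotype. Of 10 epithelial marker genes, 8 had a peak. The median promoter peak of the epithelial list had 191 normalized reads per kb in WT, that of the immune list 73.5 and that of the stromal and endothelial list 73.9. Epcam and Vil1 had no peak under their name.

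Strength in WT was read as normalized reads per kb of peak on the linear scale, since peaks differ in width, and compared with the 21079 peaks within 1 kb of any annotated gene start (promoter peaks, median 126 normalized reads per kb). The set held 26 promoter peaks of its own genes. The 12 class I promoter peaks had a median of 124 normalized reads per kb, the 8 of class II 105 and the 3 of processing genes 170, and the only transactivator promoter peak, that of Ciita, had 101. Per kb, the median of the class I promoter peaks was 1.19-fold that of class II, a log2 ratio of 0.25, which was 0.43, 0.05 and 0.04 in WT1, WT2 and WT3 taken alone. This ratio was close to its SD over the WT libraries (0.225). It was highest in WT1 taken alone, but leaving WT1 out gave 0.24, leaving WT2 out 0.17 and leaving WT3 out 0.36. It was not corrected for the lower share of unique sequence in class I peaks, which is given below. The processing genes stood 1.62-fold above class II, with log2 ratios of 1.09, 0.35 and 0.43 in the 3 WT libraries. Both ratios were above 0 in each WT library. Processing promoter peaks were also wide, with a median of 1950 bp against 825 bp for class II and 1800 bp for class I, so that the ratio per peak was larger than the ratio per kb.

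Among class I genes, the strongest promoter peak in WT was that of H2-T3, which encodes the thymus leukemia antigen of intestinal epithelium, at 297 ± 60.4 normalized reads per kb (SD, n = 3), above 90.3% of all promoter peaks. H2-D1 had 233 ± 45.4, H2-Q2 222 ± 42.8 and H2-K1 217 ± 30.4 normalized reads per kb, and these last 3 genes did not differ from each other beyond the SD. H2-T3 stood above H2-D1 by slightly more than its SD. H2-M3, which presents N-formylated peptides, had 169 ± 61.5 and H2-Q1 142 ± 31.2. H2-Q7 and H2-Q6, genes of the Qa-2 group, had 106 ± 18 and 106 ± 36.1. The weakest promoter peaks of the class were those of H2-Q10 (64.4 ± 20.7), above 1.5% of all promoter peaks, and H2-M5 (67.4 ± 31.3).

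Among class II genes, H2-DMa, a chain of the DM molecule that exchanges the invariant chain fragment for peptide, had the strongest promoter peak in WT, at 231 ± 36.7 normalized reads per kb. It stood above the next peak, that of H2-Aa (140 ± 48.4), by more than either SD. H2-Ab1, the partner of H2-Aa in the I-A molecule, had 133 ± 21.9, H2-Eb1 107 ± 19.6 and Cd74, the invariant chain, 102 ± 50.1. H2-DMb1, the partner of H2-DMa, had 87.3 ± 39.9, and H2-Ob, a chain of the DO molecule that restrains DM, had 68.9 ± 50.7. H2-Eb1 lay below H2-Ab1 by more than either SD, while the other neighbors in this order, from H2-Aa downwards, lay within the SD of each other. The H2-Eb1 value is that of a peak at another annotated start than the printed one. The peak with the printed H2-Eb1 start, named Gm20513 and outside the set, had 88.3 in WT. Among processing genes, the Psmb9 peak, whose span also holds the start of Tap1, had 268 ± 25.2, Tapbp 170 ± 18.3 and Psmb8 133 ± 30.4.

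**Figure D1:**
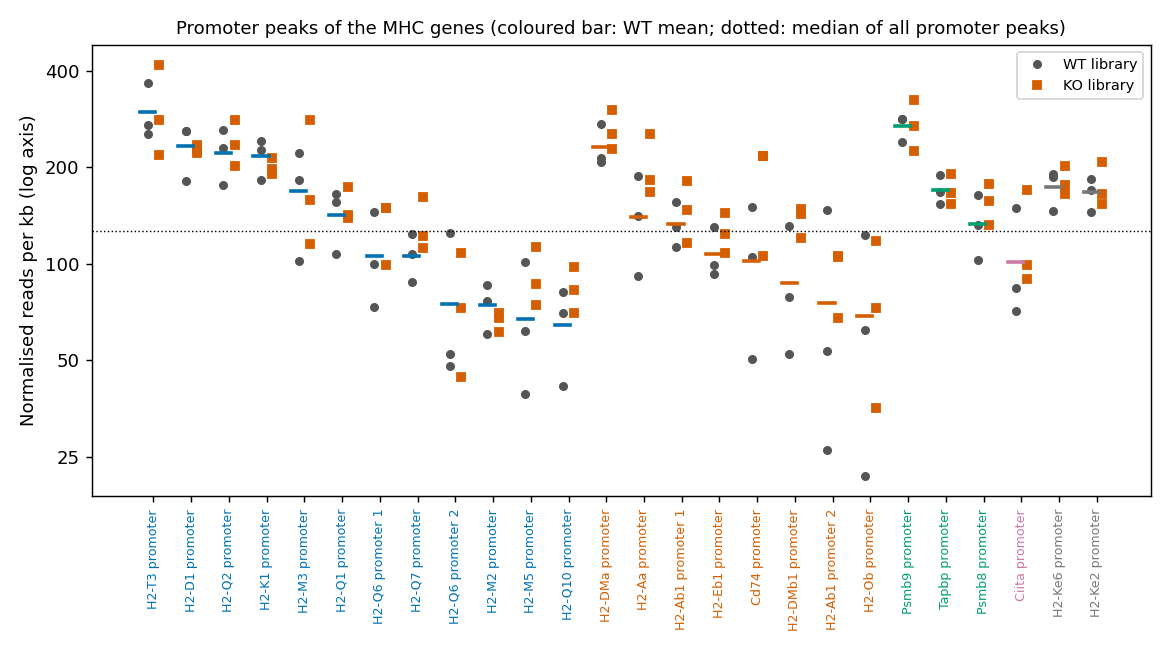
Normalized reads per kb (log axis) of the 26 promoter peaks in each of the 3 WT (circles) and 3 KO (squares) libraries. Colored bars give the WT mean and the color of the name gives the class. The WT means run from 64.4 for H2-Q10 to 297 for H2-T3, around the dotted median of 126 for all promoter peaks. The WT values of Cd74, H2-DMb1, H2-Ab1 promoter 2 and H2-Ob are widely spread.

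Several genes covered by the rule had no peak under their name. No peak was named B2m or Tap1. The start of B2m, the light chain shared by all class I molecules, lay in a peak named Patl2 at chr2:122146801-122149650, with 207 normalized reads per kb in WT and 214 in KO and a KO minus WT log2 difference of 0.04 (SE 0.348). Of 45 H2 genes in the GENCODE annotation of GRCm38, 20 had a peak of the set. The other 25 included 12 with some peak within 5 kb that carried another name or none. Among the latter, the start of H2-Q4 lay in a peak named Gm11131 (193 normalized reads per kb in WT) and that of H2-T23, the Qa-1 heavy chain, in one named A930015D03Rik (90.7).

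KO was compared with WT by limma on the deposited log2 values of all peaks. No peak of the 48, and none of the 123510 (0%), had an adjusted p-value below 0.05 (limma, Benjamini-Hochberg), and the adjusted p-value was 1 for each of the 48. The authors, who used edgeR, did report peaks with changed accessibility, so the absence of calls belongs to this fit. At an unadjusted p-value below 0.05, 5 of the 48 peaks (10.4%) were higher in KO, against 0.909% of all peaks. None was lower, against 1.37% of all peaks. In 3 of the 48 peaks (6.25%) the 3 KO values lay above the 3 WT values, against 2.70% of all peaks, and in none did they lie below, against 4.10%. Of the 48 peaks, 41 share chromosome 17, and all were measured in the same 6 libraries. They are not independent observations. The median KO minus WT difference was 0.15 over the 48 peaks and -0.02 over all peaks. Of the 48, 40 (83.3%) lay above 0, against 57876 of the 123510 peaks (46.9%).

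The classes differed in where these values lay. Class II peaks had a median KO minus WT difference of 0.55 on the log2 scale, with 12 of 13 (92.3%) above 0 and a range from -0.02 to 0.88. Class I peaks had a median of 0.09, with 15 of 22 (68.2%) above 0 and a range from -0.39 to 0.66. Over all peaks 46.9% lay above 0. The 5 processing peaks had a median of 0.13 and the 6 transactivator peaks 0.26, all above 0, but 3 of the processing differences were no larger than 0.13. Of the 5 peaks with an unadjusted p-value below 0.05, 4 were class II peaks and 1 a processing peak, and no class I or transactivator peak was among them. Promoter peaks gave 0.42 in class II (n = 8) and 0.11 in class I (n = 12). These medians describe the peaks and carry no test.

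**Figure D2:**
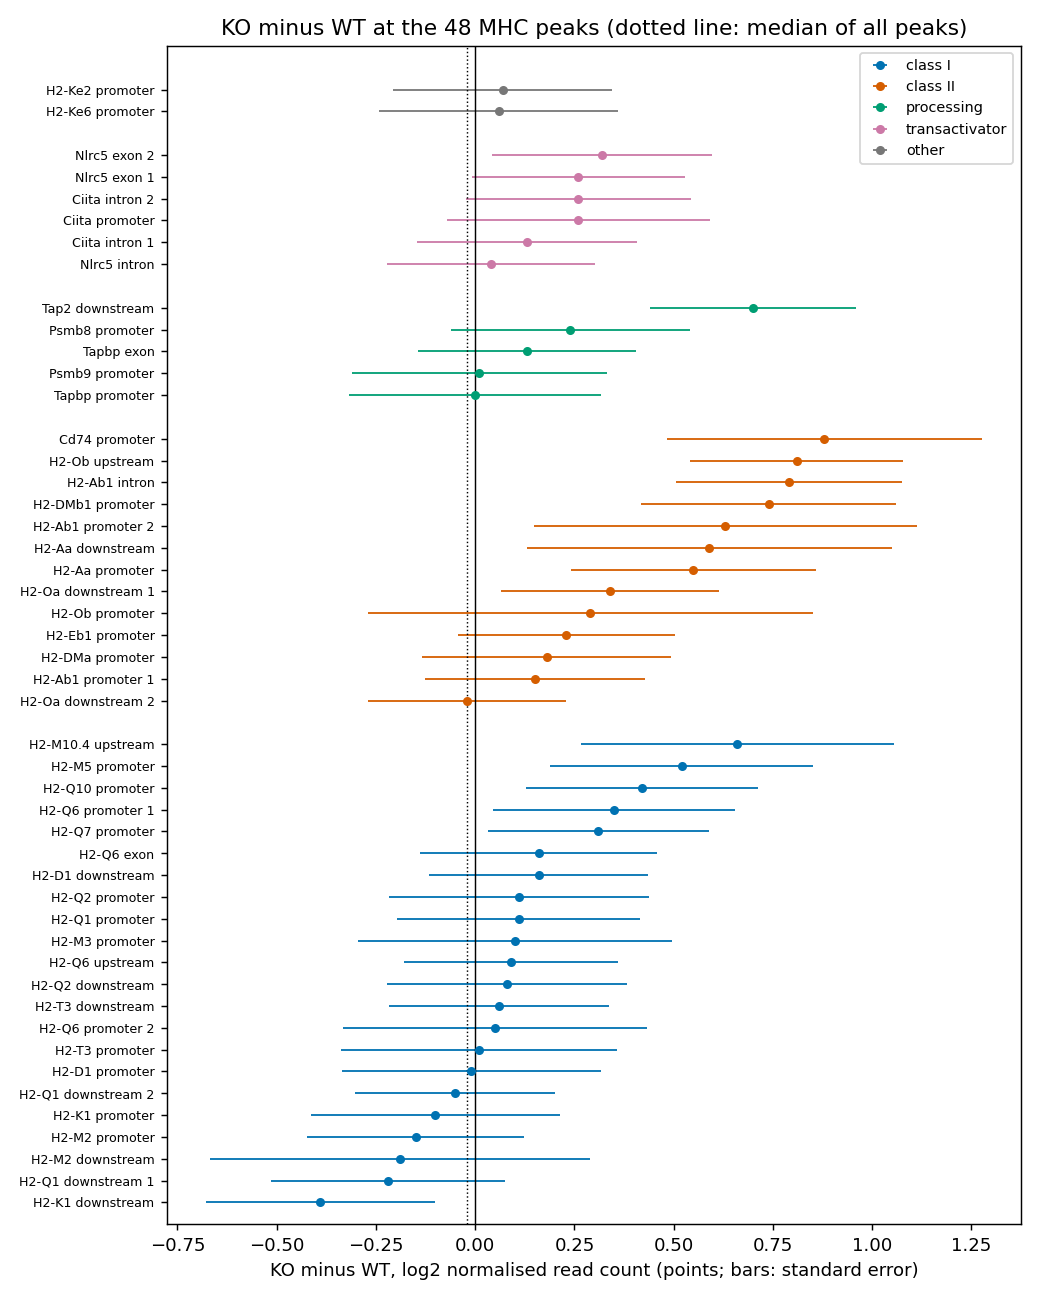
KO minus WT difference of each of the 48 peaks on the log2 scale (points) with its standard error from limma (bars), colored by class, and with the median of all peaks as a dotted line. Class II points lie between -0.02 and 0.88 with 12 of 13 to the right of 0, while class I points lie on both sides of 0, between -0.39 and 0.66.

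The class II difference did not stand at the same level in each library. Relative to the WT mean of each peak, the median over the 13 class II peaks was -0.32 in WT1, 0.18 in WT2 and 0.18 in WT3, and 0.20 in KO1, 0.71 in KO2 and 0.46 in KO3. KO1 thus lay only just above WT2 and WT3, and WT1 lay apart below all others. WT1 was the lowest library in 11 of the 13 class II peaks, in 11 of 22 class I peaks, and in 85 of the other 236 peaks between the outermost H2 peaks of chromosome 17 (33940051 to 37483500). Without WT1, the class II median was 0.21 and the class I median -0.03. In that fit 1 of the 48 peaks had an unadjusted p-value below 0.05, the H2-Ob upstream peak, with a difference of 0.65. Without KO2, the class II median was 0.29. WT1 held 7077476 reads in peaks, more than WT2 and less than WT3, and was not the library with the lowest or the highest median over all peaks.

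**Figure D3:**
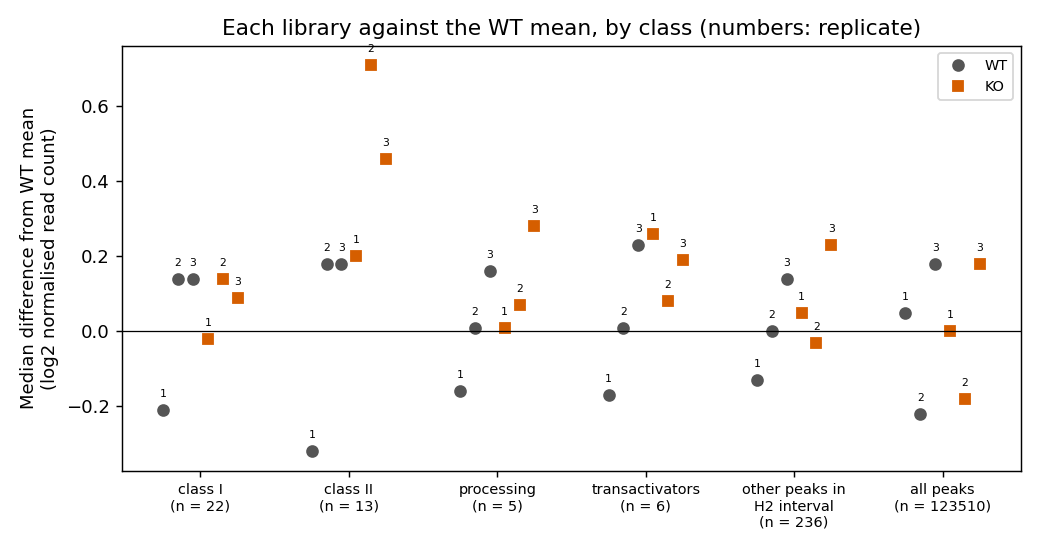
Median difference of each library from the WT mean (log2), over the peaks of each class, the other 236 peaks inside the H2 interval and all 123510 peaks. Circles are WT, squares are KO and the small numbers are replicate numbers. In class II the KO libraries lie at 0.20, 0.71 and 0.46 and WT1 at -0.32, while over all peaks number 2 is lowest in both groups (-0.22 and -0.18).

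Cd74 showed the largest difference of the set. Its promoter peak (chr18:60803101-60804150) had log2 normalized read counts of 5.73, 6.79 and 7.30 in WT1, WT2 and WT3 and of 6.80, 7.82 and 7.83 in KO1, KO2 and KO3. KO2 and KO3 lay above every WT library, but KO1 lay below WT3, so the groups overlapped. KO minus WT was 0.88 (SE 0.396, unadjusted p = 0.0432, limma), and 0.44 without WT1.

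The H2-Ob peak upstream of the gene (chr17:34234951-34235400, 3503 bp before it) had the smallest p-value of the set. Its values were 4.88, 5.20 and 5.52 in WT and 5.77, 6.01 and 6.24 in KO, and the groups did not overlap. KO minus WT was 0.81 (SE 0.268, unadjusted p = 0.00902, limma), on 15 to 46 reads per library. The promoter peak of the same gene (chr17:34238701-34239150) had 3.29, 5.79 and 4.81 in WT and 5.03, 5.73 and 4.00 in KO. There the groups overlapped throughout and the difference was 0.29 (SE 0.560) on as few as 4 reads.

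H2-Ab1 held 3 peaks. The intronic peak (chr17:34261351-34262100) had 5.73, 6.31 and 5.95 in WT and 6.45, 6.71 and 7.21 in KO, without overlap, a difference of 0.79 (SE 0.284, unadjusted p = 0.0140, limma). The neighboring promoter peak (chr17:34262851-34263600) had 6.40, 6.61 and 6.87 in WT and 6.45, 6.79 and 7.08 in KO, with a difference of 0.15 (SE 0.277) and groups that overlapped. A peak over a noncoding or UTR exon, within 1 kb of another annotated start of the gene, gave 0.63 (SE 0.482), with WT values as far apart as 3.56 and 6.05.

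The partners in DM gave unlike values. The H2-DMb1 promoter peak (chr17:34152751-34153650), which contains the printed sequence with the X then Y pair, had 5.56, 6.88 and 6.15 in WT and 7.01, 7.06 and 6.75 in KO. KO3 lay below WT2, and the difference was 0.74 (SE 0.321, unadjusted p = 0.0357, limma). At H2-DMa (chr17:34135051-34136850) the values were 8.54, 8.58 and 8.94 in WT and 8.68, 8.83 and 9.08 in KO, a difference of 0.18 (SE 0.314).

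For the I-A chain H2-Aa, the promoter peak (chr17:34287601-34288200) had 5.78, 6.40 and 6.82 in WT and 6.77, 6.65 and 7.24 in KO. KO1 and KO2 lay below WT3, and the difference was 0.55 (SE 0.309, unadjusted p = 0.0941, limma). A second peak, downstream of H2-Aa, gave 0.59 (SE 0.459), with KO2 at 6.81 the highest library. The peak of the set at H2-Eb1, the I-E beta chain, lay over a coding exon at another annotated start (chr17:34309201-34310250) and gave 0.23 (SE 0.273). The start of the printed H2-Eb1 promoter lay in a peak named Gm20513 (chr17:34305451-34306500), outside the set, with 5.56, 6.81 and 6.89 in WT and 6.45, 7.38 and 7.72 in KO. KO1 again lay below WT2 and WT3, and the difference there was 0.76 (SE 0.393, unadjusted p = 0.0719, limma). H2-Oa, the other DO chain, had 2 peaks downstream of the gene, with differences of 0.34 (SE 0.274) and -0.02 (SE 0.250), the second the only class II value below 0.

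**Figure D4:**
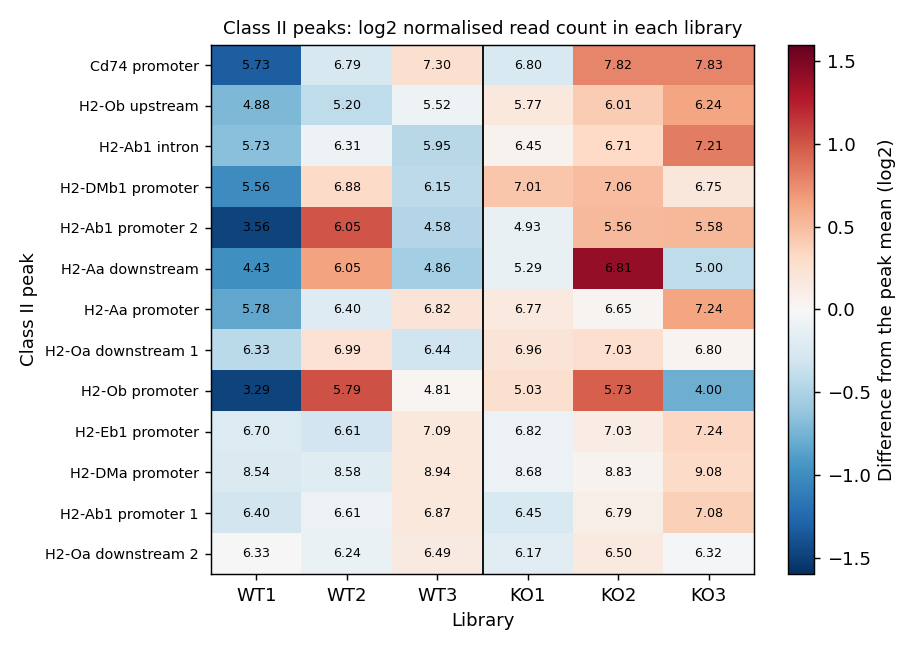
Log2 normalized read count of the 13 class II peaks (printed numbers) in the 6 libraries, colored by the difference from the mean of the peak over all libraries. The WT1 column is the lowest in 11 of 13 peaks, and only the H2-Ob upstream and H2-Ab1 intron peaks have all 3 KO values above all 3 WT values.

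Markers of other cells were read in the same libraries. Of 14 immune marker genes, 8 had a peak and 4 had a promoter peak, and genes such as Cd3d, Cd3e, Cd79a, Spi1 and Laptm5 had none. The summed linear level of the 4 immune promoter peaks (Ptprc, Cd3g, Cd79b and Coro1a) was 220 to 232 normalized reads in the WT libraries and 247 to 337 in the KO libraries, highest in KO2, so that it was higher in KO without overlap. Over all 12 immune peaks, however, 5 were above 0 and the median KO minus WT difference was -0.08. One intronic Ptprc peak was lower in KO (-0.91, SE 0.353, unadjusted p = 0.0216, limma). None of the 12 had an adjusted p-value below 0.05. The epithelial promoter peaks summed to 2503 to 3765 in WT and 2486 to 4218 in KO, and the stromal and endothelial ones to 482 to 696 and 535 to 766, both overlapping. The part of immune cells in the class II values was not tested.

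Among class I genes, no peak had an unadjusted p-value below 0.05. The promoter peaks of the classical heavy chains stayed close to 0. H2-K1 (chr17:33998701-34001100) had 8.77, 9.17 and 9.09 in WT and 8.84, 8.89 and 9.01 in KO, a difference of -0.10 (SE 0.314). H2-D1 (chr17:35262151-35264700) had 8.85, 9.37 and 9.37 in WT and 9.15, 9.23 and 9.19 in KO, a difference of -0.01 (SE 0.326). In both genes the 3 KO values lay within the range of the WT values.

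The other strong class I promoters also overlapped between groups. H2-T3 (chr17:36189151-36190800) gave a difference of 0.01 (SE 0.347), H2-M3 0.10 (SE 0.395), H2-Q1 0.11 (SE 0.306) and H2-Q2 0.11 (SE 0.328). H2-Q6 and H2-Q7 gave 0.35 (SE 0.304) and 0.31 (SE 0.278). The values furthest above 0 in the class came from weak peaks, the H2-M10.4 peak upstream of the gene (0.66, SE 0.394, on 8 to 33 reads) and the H2-M5 promoter (0.52, SE 0.332, on 12 to 37 reads).

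The 5 peaks with the smallest p-values below 0 were all class I peaks. A peak downstream of H2-K1 (chr17:33991801-33992250) had 5.67, 5.40 and 5.00 in WT and 5.12, 4.98 and 4.80 in KO. KO1 lay above WT3, and the difference was -0.39 (SE 0.288, unadjusted p = 0.197, limma). The others were a peak downstream of H2-Q1 (-0.22, SE 0.294), the promoter peak and a downstream peak of H2-M2 (-0.15, SE 0.273, and -0.19, SE 0.479) and the H2-K1 promoter given above.

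Some class I genes resemble each other closely, and the authors' limit on mapping quality removes reads that cannot be placed with confidence. The share of 50-base windows that occur once in the genome was therefore computed for each peak. It had a median of 87.7% in class I, and 13 of the 22 class I peaks lay below 90%, against 378 of 4776 other peaks of chromosome 17 (7.91%). Among promoter peaks it was lowest at H2-Q6 (42.2%) and H2-Q7 (57.3%), and another H2-Q6 peak had 50.4%. At the H2-K1 and H2-D1 promoters it was 83.0% and 87.7%, while H2-Q10 and H2-M5 reached 100%. Every class II, processing and transactivator peak lay at 94.0% or above. The values of H2-Q6 and H2-Q7 are therefore uncertain. Reads per kb at the other class I peaks below 90%, and with them the WT ratio of class I to class II, may be too low. The size of this effect was not tested.

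Among processing genes, the promoter peaks of Tapbp and Psmb9 had differences close to 0. Tapbp (chr17:33918301-33921600) had 8.98, 9.10 and 9.29 in WT and 9.10, 8.98 and 9.29 in KO, a difference of 0.00 (SE 0.318). The Psmb9 peak with the Tap1 start (chr17:34186501-34188450) had 8.86, 9.10 and 9.11 in WT and 8.78, 9.04 and 9.30 in KO, a difference of 0.01 (SE 0.321). Psmb8 gave 0.24 (SE 0.301).

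The processing peak with an unadjusted p-value below 0.05 was named Tap2 but lay 2130 bp downstream of the gene (chr17:34218451-34219200). Its values were 5.43, 5.83 and 6.02 in WT and 6.65, 6.43 and 6.32 in KO, without overlap, and KO minus WT was 0.70 (SE 0.260, unadjusted p = 0.0168, limma). The start of Tap2 itself lay in a peak named Gm20496, with a difference of 0.06 (SE 0.276).

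Of the transactivators, the Ciita promoter peak (chr16:10489351-10490100) had 5.97, 5.74 and 6.81 in WT and 6.21, 6.07 and 7.0 in KO. The groups overlapped, and the difference was 0.26 (SE 0.331). The other 2 Ciita peaks and the 3 Nlrc5 peaks lay in introns or coding exons, with differences from 0.04 to 0.32. The start of Nlrc5 lay in a peak without a name (chr8:94433551-94434600), with 6.88, 6.61 and 7.64 in WT and 7.48, 7.29 and 7.52 in KO, a difference of 0.39 (SE 0.309).

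The 236 other peaks inside the H2 interval, some of which hold the starts of H2 genes under other names, had a median KO minus WT difference of 0.07. Of these, 157 (66.5%) lay above 0, a share near that of the class I peaks (68.2%) and above that of all peaks (46.9%). Of the 236, 2 (0.847%) were higher in KO at an unadjusted p-value below 0.05 (limma), against 0.909% of all peaks. In 8 of the 236 (3.39%) the 3 KO values lay above the 3 WT values, against 2.70% of all peaks. Further genes of the pathway (chaperones, cathepsins, class II promoter binding factors and the interferon-gamma pathway, 30 in the list) had 85 peaks at 26 genes. None of the 85 had an adjusted p-value below 0.05 (limma), and the median difference was 0.05. At an unadjusted p-value below 0.05, 1 of the 85 was higher, against 0.909% of all peaks, and none was lower, against 1.37%. The one was an Irf2 peak away from its promoter, with 4.29, 4.88 and 4.32 in WT and 5.29, 5.27 and 5.32 in KO (0.80, SE 0.314, unadjusted p = 0.0231, limma), where the groups did not overlap.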

How the data were processed

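ATAC-seq of small intestinal crypt nuclei was analyzed from the table of all MACS peaks. The authors trimmed reads with Trim Galore (version 0.4.1), mapped them to GRCm38 with Bowtie2 (version 2.2.5), and in SeqMonk removed duplicates and reads of low mapping quality and called 1 set of peaks. The deposited values are log2 read counts per peak, which the authors normalized to the largest library. A second table, with the peaks past the authors' edgeR threshold and their adjusted p-values, was not used. All 6 value columns matched a library title.

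The members and lists were chosen with earlier results of these data known. On the linear scale the values were whole multiples of 1 read in each library (100% within 0.1 of a whole number), which gave the depth. KO was compared with WT in limma (version 3.58.1, R version 4.3.3; lmFit and eBayes with trend, two-sided) on all 123510 peaks and 6 libraries, with Benjamini-Hochberg adjustment over all peaks and no covariate. The test was tested on simulated data. How often it finds differences of the sizes reported here was not tested. P-values rest only on the spread between these 3 and 3 libraries. In limma the variance of each peak is drawn towards a trend over all peaks, so its SE is not its own spread alone. Without molecular identifiers, reads may repeat a molecule.

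Promoter peaks lay within 1 kb of an annotated start of their own gene (GENCODE vM21, GRCm38). Named peaks were those called with or without a replicate block, the 5 with the smallest unadjusted p-values in each direction, the promoter peak of each class II, processing and transactivator gene, and the 8 strongest class I promoter peaks per kb. Tables and figures were made with Python (version 3.11.15). The alternatives were median centering, trimmed mean of M values, quantile normalization, a pseudocount of 5, a mean of at least 20 reads, voom on the recovered reads, a replicate block, each library left out, a threshold of 0.1, and other ways to choose peaks. Leaving out both libraries of one number, the block with quantile normalization, and class medians over GENCODE-named peaks were added after seeing the data.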

Additional observations from a re-analysis of the deposited data

How the results depend on the processing

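No peak of the set was called (limma, adjusted p below 0.05) under median centering, trimmed mean of M values, quantile normalization, a pseudocount of 5, a mean of at least 20 reads (45 of the 48 peaks tested), voom, a threshold of 0.1, GENCODE-named peaks, or with any library or number left out, and no member was lower in KO at an unadjusted p below 0.05 in any of these fits. The count of members higher at an unadjusted p below 0.05 (limma) was 5 as reported, beside 1123 of the 123510 peaks. It was 1 without WT1, beside 676 of all peaks, and 1 without both libraries of number 1, beside 458. It reached 9 without both libraries of number 2, beside 2386 of all peaks. It was also 9 with the replicate block and quantile normalization, beside 4818. The count over all peaks thus moved with the fit as well. With the replicate number as a replicate block, 272 of 123510 peaks were called (199 higher, 73 lower) and 2 of the 48: Cd74 (adjusted p = 0.000553) and the H2-Ab1 intron peak (adjusted p = 0.0465). With the replicate block and quantile normalization 1 was called, Cd74 (adjusted p = 0.00267). The weight of the variance trend over all peaks in limma, its prior degrees of freedom, was 10.62 as reported. It was 6879 with the block and 54.94 with the block and quantile normalization. With the block alone, the spread of a single peak thus hardly entered its p-value. The numbers are not shown to pair the mice: same-numbered deviations correlated at 0.04, 0.42 and 0.41 for numbers 1, 2 and 3, and WT1 correlated no better with KO1 than with KO3 (0.04). The peak with the H2-Eb1 start, named Gm20513, also passed with the block (adjusted p = 0.0211). The class medians kept their side of 0 under every alternative except class I, which was -0.03 without WT1 and -0.04 without both libraries of number 1. With libraries left out, class II ran from 0.21 to 0.81 and the transactivators from 0.10 to 0.31, and class II was 0.32 over GENCODE-named peaks and 0.42 over promoter peaks. The WT log2 ratio of class I to class II became 1.24 per peak and -0.01 over all peaks, and that of processing to class II 2.51 per peak; peak width is not divided out in the values per peak. Of the 26 named peaks, 15 kept their direction throughout. H2-D1 was 0.02 with voom, the H2-T3 promoter -0.01 with quantile normalization, voom and the block with quantile normalization, and the Tapbp promoter -0.0029 with quantile normalization, with and without the block. With libraries left out, the ranges that crossed 0 were -0.18 to 0.08 for the H2-D1 promoter, -0.08 to 0.29 for H2-Q1, -0.05 to 0.26 for H2-Q2, -0.24 to 0.23 for H2-T3, -0.25 to 0.39 for H2-M3, -0.66 to 0.50 for the H2-M2 downstream peak, -0.43 to 0.87 for the H2-Ob promoter, -0.01 to 0.31 for the H2-Ab1 promoter, -0.08 to 0.08 for Tapbp, -0.12 to 0.14 for Psmb9 and -0.03 to 0.57 for Ciita. The cause was not tested. The count test edgeR was not run, and voom on the recovered reads was the count-based fit. Depth limits the weak peaks most, with 4 reads in the lowest library at the H2-Ob promoter.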
